A study of Mus musculus with 12 samples.

Results

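The nuclear genes of the respiratory chain were followed in the RNA of S1 tumorspheres as 100 of 18926 listed genes. They were chosen by symbol alone, as protein-coding genes named Nduf, Sdha to Sdhd, Sdhaf, Uqcr, Cox4 to Cox8, Cox10 to Cox19 or Atp5. Complex I gave 47 of them (39 subunits and 8 assembly factors) and complex II gave 8 (4 subunits and 4 assembly factors). Complex III gave 8 subunits, complex IV gave 20 genes (12 subunits and 8 assembly factors) and complex V gave 17 subunits. All 100 passed the filter on low counts that left 18053 genes for testing.

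The respiratory chain sits in the inner mitochondrial membrane. Complexes I and II pass electrons from NADH and succinate to ubiquinone, complex III hands them to cytochrome c, complex IV hands them to oxygen, and complex V, the ATP synthase, uses the proton gradient that complexes I, III and IV build. Most subunits are encoded in the nucleus and imported, whereas a small set of core subunits comes from mitochondrial DNA, and assembly factors help to build the complexes without staying in them.

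S1 is a cell line from a gastric cancer of a ChetPS mouse, and tumorspheres are the round clusters that such cells form in suspension. The methods describe cells with stable Cas9, a lentiviral guide RNA and pooled rather than clonal selection. The guide was a non-targeting one in Control, and it was directed at Rasa1 in Rasa1-KO, at Nf2 in Nf2-KO and at both genes in double-KO, with 3 libraries in each of the 4 groups. Rasa1 encodes a brake on Ras, and Nf2 encodes the Hippo pathway protein Merlin. The labels call the cells a monolayer while the methods describe tumorspheres, and the study describes the replicates of these profiles as technical. Every SD and p-value therefore measures the spread between such libraries, not between separate cultures. A library without a number in its label is called unnumbered here.

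Libraries held between 43818139 and 96674463 counts. The targeted genes went against some of the labels: Nf2 had 58.2 ± 2.82 CPM (SD, n = 3) in Control and 13.6 ± 0.631 in Nf2-KO, but 11.9 ± 0.253 in the Rasa1-KO-labelled libraries and 58.9 ± 3.30 in the double-KO-labelled ones. Rasa1 had 71.3 ± 9.54 CPM in Control, 31.9 ± 2.27 in the Rasa1-KO-labelled libraries, 98.5 ± 2.21 in Nf2-KO and 20.5 ± 2.80 in the double-KO-labelled ones. Here CPM are counts scaled to library size after TMM normalization, and SE below is the standard error of the fit. The names of the deposited tables also exchange Rasa1-KO and double-KO, so every comparison with these groups below is by label only, and the counts with the labels exchanged are given beside it. The control libraries stood far apart from each other, with 2.20% of the counts on lncRNA genes in Control unnumbered against 6.01% and 6.54% in Control 1 and Control 2. In the double-KO-labelled libraries the same share was 2.64%, 5.78% and 5.73%, and in the other 6 libraries it lay between 2.02% and 2.80%. Epithelial markers (5 of 6 listed) summed to between 2015 and 4128 FPKM, carried by the keratins Krt8, Krt18 and Krt19. Epcam had between 27.7 and 31.7 FPKM in Control. It had between 9.16 and 9.79 in the Rasa1-KO-labelled libraries, 4.43 and 4.89 in Nf2-KO, and 9.96 and 18.6 in the double-KO-labelled ones. Cldn4 had at most 0.415 FPKM in any library. Markers of endothelium (2 of 3 listed) and striated muscle (1 of 5 listed) summed to at most 0.390 and 0.0525 FPKM. Fibroblast markers (4 of 5 listed) summed to between 15.6 and 45.7 FPKM in Control and 30.1 and 37.2 in the Rasa1-KO-labelled libraries. They summed to between 101 and 115 in Nf2-KO, and 7.41 and 8.42 in the double-KO-labelled ones. Dcn carried the Control sum, at between 15.4 and 41.2 FPKM, and had between 12.8 and 13.3 in the Rasa1-KO-labelled libraries. The other fibroblast markers ran higher there than in Control. Col1a1 had at most 3.44 FPKM in Control and at least 8.10 there, Col1a2 at most 0.0944 and at least 4.86, and Pdgfra at most 0.954 and at least 4.36. Leukocyte markers (2 of 4 listed) summed to at most 16.2 in any library. The leukocyte sum was carried by Cd68, as Ptprc had at most 0.0971 FPKM in any library. The part of all these markers in the results was not tested. In such bulk RNA, fewer cells of a type and less RNA per cell cannot be told apart.

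Respiratory chain subunits had higher levels than assembly factors. On the FPKM scale, which divides counts by transcript length, the median level over the 12 libraries was 54.9 for all 100 genes. Subunits had medians of 47.5 in complex I, 59.6 in complex II, 79.0 in complex III, 170 in complex IV and 130 in complex V. The highest levels were those of Atp5b, the catalytic beta subunit of the ATP synthase, at 470 FPKM and of the complex IV subunits Cox8a and Cox4i1 at 462 and 416 FPKM. Assembly factors had medians of 6.26 in complex I, 10.7 in complex II and 10.5 in complex IV. The lowest member was Ndufb4b at 2.18 FPKM, a near-identical copy of Ndufb4 whose reads may be divided between Ndufb4, Ndufb4b and Ndufb4c. Cox7a1, the heart and muscle isoform of subunit 7a of complex IV, was present at 9.30 FPKM beside 88.6 FPKM of the liver-type isoform Cox7a2.

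Promoters are shown for 4 members on which the comparisons turn: Ndufa6 and Atp5g2, which differed most between the Rasa1-KO-labelled libraries and Control, Cox7a1, which lay above Control in every library of the other groups, and Ndufaf4, which lay below it in every one. Each run is the 250 bases before the RefSeq start in GRCm38.p6, on the strand of the gene, with matches to the motifs below in capitals.
Ndufa6 promoter (chr15:82354292-82354541, minus strand): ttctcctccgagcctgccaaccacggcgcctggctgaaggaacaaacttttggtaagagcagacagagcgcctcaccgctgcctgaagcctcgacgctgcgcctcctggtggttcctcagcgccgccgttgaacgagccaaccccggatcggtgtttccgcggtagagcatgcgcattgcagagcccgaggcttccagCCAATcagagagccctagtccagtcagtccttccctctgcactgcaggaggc
Atp5g2 promoter (chr15:102671048-102671297, minus strand): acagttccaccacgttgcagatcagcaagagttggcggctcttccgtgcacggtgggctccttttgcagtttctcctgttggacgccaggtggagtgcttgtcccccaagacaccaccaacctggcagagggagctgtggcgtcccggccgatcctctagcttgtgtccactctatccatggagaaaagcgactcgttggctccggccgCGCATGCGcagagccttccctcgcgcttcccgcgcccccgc
Cox7a1 promoter (chr7:30183921-30184170, plus strand): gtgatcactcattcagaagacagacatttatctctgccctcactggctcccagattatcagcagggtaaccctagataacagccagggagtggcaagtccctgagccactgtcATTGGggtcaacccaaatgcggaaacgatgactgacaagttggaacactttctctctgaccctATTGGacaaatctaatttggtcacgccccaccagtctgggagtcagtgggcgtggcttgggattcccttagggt
Ndufaf4 promoter (chr4:24897833-24898082, plus strand): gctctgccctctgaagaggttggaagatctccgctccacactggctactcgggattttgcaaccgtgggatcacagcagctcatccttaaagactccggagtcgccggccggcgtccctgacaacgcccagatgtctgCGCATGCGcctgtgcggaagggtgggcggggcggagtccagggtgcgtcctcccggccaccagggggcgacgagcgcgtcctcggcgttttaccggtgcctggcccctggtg
The capitals mark CGCATGCG, the palindromic core bound by NRF1, in Atp5g2 and Ndufaf4, and CCAAT or its complement ATTGG, the core bound by NF-Y, in Ndufa6 and Cox7a1. NRF1 is known as an activator of many nuclear genes for mitochondrial proteins.

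Windows of 300 bases, from 250 before to 50 after the start, were at hand for 84 of the 100 members (90 windows). On either strand, CGCATGCG stood in 12.2% of these windows against 3.48% of 13935 windows of the tested protein-coding genes and 1.87% of all 32851 windows. CCGGAAG, a core bound by ETS factors such as GABPA, stood in 30% against 16% and 8.86%. GCCATNTT, a core bound by YY1, stood in 23.3% against 7.76% and 6.05%, and CCAAT in 41.1% against 38.2% and 37.4%. By complex, CCGGAAG stood in 14% of the 43 windows of complex I and 47.1% of the 17 windows of complex IV, while GCCATNTT stood in 32.6% of those of complex I and 11.8% of those of complex IV. These matches describe the letters of the windows and were not tested against the expression values.

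The members moved together from library to library, and the widest movement was inside the control group. The mean over the 100 members of log2 CPM, each relative to the gene's own mean over the 12 libraries, was 0.39 in Control unnumbered, -0.32 in Control 1 and -0.60 in Control 2. It was 0.24, 0.13 and 0.22 in the Rasa1-KO-labelled libraries, -0.02, 0.03 and 0.15 in Nf2-KO, and 0.11, -0.16 and -0.17 in the double-KO-labelled ones. The control libraries thus spanned the values of all other libraries. Control unnumbered exceeded Control 1 for 99 of the 100 members (median difference 0.75 on the log2 scale) and Control 2 for 98 (median 1.00), whereas it exceeded them for 55.2% and 55.9% of all tested protein-coding genes. The median SD of a member between libraries was 0.54 in Control against 0.35 for protein-coding genes, and it was 0.07, 0.12 and 0.17 in the Rasa1-KO-labelled libraries, Nf2-KO and double-KO against 0.09, 0.11 and 0.15.

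All 5 complexes followed this course. In Control unnumbered their means lay between 0.35 (complex IV) and 0.42 (complex I), and in Control 2 between -0.76 (complex III) and -0.46 (complex II). In the Rasa1-KO-labelled libraries the group means were 0.19 for complex I, 0.15 for complex II, 0.22 for complex III, 0.19 for complex IV and 0.23 for complex V. In Nf2-KO they were 0.06, -0.03, 0.04, 0.02 and 0.11, and in the double-KO-labelled ones -0.09, -0.01, -0.02, -0.04 and -0.12, in the same order. The SD between control libraries was between 0.43 and 0.57 for each complex, larger than the distance between any pair of group means of the same complex. Assembly factors moved less than subunits, from 0.32 to -0.36 within Control against 0.41 to -0.66.

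**Figure D1:**
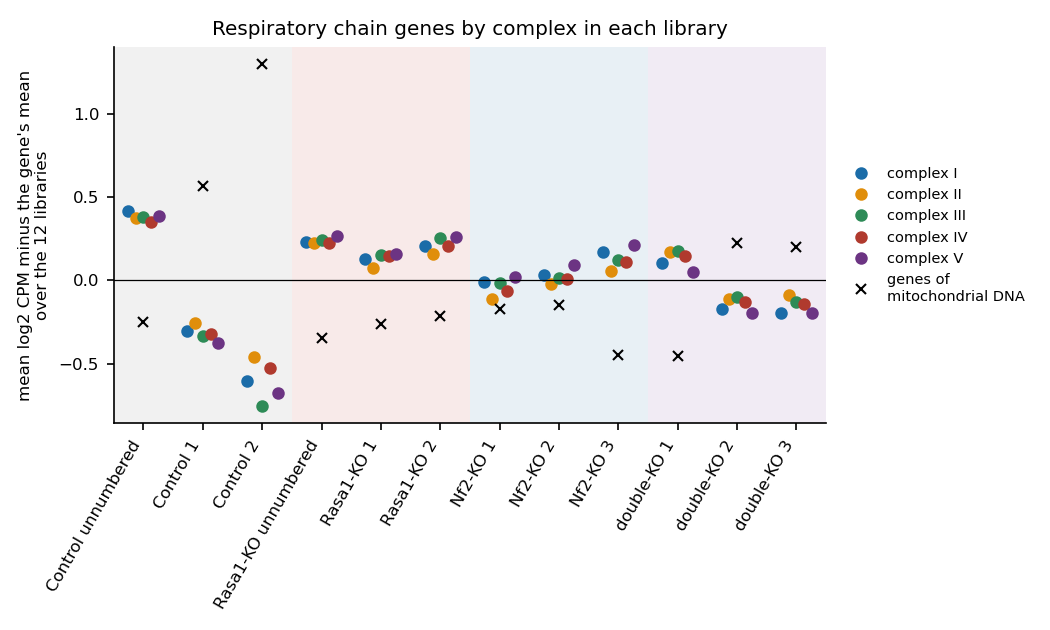
Mean log2 CPM of the members of complexes I to V and of 13 genes of mitochondrial DNA in each of the 12 libraries (x axis, shaded by group), relative to each gene's mean over the libraries (y axis, log2). The complexes run from about 0.4 in Control unnumbered to between -0.76 and -0.46 in Control 2, while the genes of mitochondrial DNA run the other way, from -0.25 to 1.30.

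The 13 genes of mitochondrial DNA, which encode partner subunits in complexes I, III, IV and V, ran in the opposite direction in the control group. Their mean was -0.25 in Control unnumbered, 0.57 in Control 1 and 1.30 in Control 2, and between -0.45 and 0.23 in the other 9 libraries. ND4, a membrane subunit of complex I, had 20.2, 119 and 307 CPM in the control libraries, between 15.1 and 25.8 CPM in the 6 Rasa1-KO-labelled and Nf2-KO libraries, and between 40.2 and 64.9 CPM in the double-KO-labelled ones. Against Control, ND4 fell in the Rasa1-KO-labelled libraries by 2.74 on the log2 scale (SE 0.68, edgeR adjusted p = 0.00745), although Control unnumbered was as low as they were. Of the 13 genes 5 fell in that comparison, against 22.2% of all genes, and 7 fell in Nf2-KO, also against 22.2%. None was called in double-KO against Control, where 2.46% of all genes were called lower and 4% higher. The unadjusted p of 4 of the 13 genes was under 0.05 there.

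Rasa1-KO against Control would ask what loss of Rasa1 changes in the tumorspheres. Yet Nf2 (11.9 against 58.2 CPM) and Rasa1 (31.9 against 71.3 CPM) were both lower in these libraries. By the labels, 12 of the 100 members rose and 1 fell (edgeR, adjusted p under 0.05), against 19.7% and 22.2% of all 18053 tested genes. The members' median log2 fold change was 0.30, with 90 of 100 above 0, against -0.08 for all genes. Medians by complex were 0.28, 0.14, 0.38, 0.31 and 0.35 from complex I to V, and those of all subunits and all assembly factors were 0.32 and 0.12. The libraries of both groups did not overlap, with the Rasa1-KO-labelled ones higher, for 15 members, against 24.1% of all genes. By the rule of the study, a fold of at least 3 with a raw p under 0.05, no member was called against 9.27% of all genes. The count turned on 1 library: without Control unnumbered, 85 members rose and 1 fell while 60.8% of all genes were called, and without Control 1 there were 4 and 2 (32.5% of all genes). Without Rasa1-KO unnumbered 6 rose, and without Rasa1-KO 2 there were 8, with none lower in either case (31.1% and 31% of all genes). With the exchanged labels none rose and 1 fell, against 6.46% of all genes, and fitted on these 2 groups alone 3 rose, against 26.1%.

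**Figure D2:**
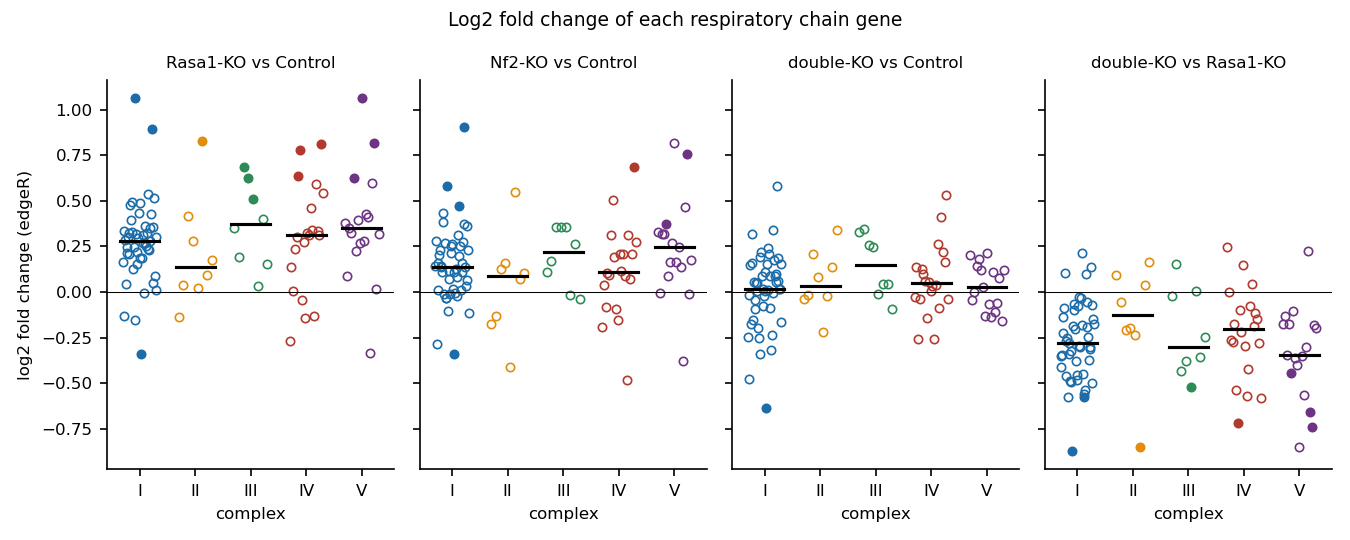
Log2 fold change (y axis, edgeR) of each of the 100 members by complex (x axis) in 4 comparisons, where filled points passed an adjusted p of 0.05 and black lines are medians. The medians lie between 0.14 and 0.38 in the Rasa1-KO-labelled libraries against Control and between 0.02 and 0.15 in the double-KO-labelled ones.

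In complex I, Ndufa6 and Ndufv3 rose and Ndufaf4 fell, with 44 of 47 genes not called. Ndufa6, an accessory subunit, had 187, 110.3 and 97.0 CPM in Control and 287, 258 and 279 CPM in the Rasa1-KO-labelled libraries. All of the latter lay above all control libraries, with a log2 fold change of 1.06 (SE 0.21, edgeR adjusted p = 0.00171). Ndufv3, an accessory subunit of the NADH-binding part, had 100.1, 53.2 and 35.4 CPM in Control and 116, 114 and 120.3 CPM there, again without overlap (log2 fold change 0.89, SE 0.29, edgeR adjusted p = 0.0275). Ndufaf4, an assembly factor of complex I, had 19.5, 15.8 and 15.5 CPM in Control and 13.8, 12.7 and 13.7 CPM in the Rasa1-KO-labelled libraries, so that it ran below Control while the other called members ran above (log2 fold change -0.34, SE 0.12, edgeR adjusted p = 0.0391). The core subunits Ndufs1, Ndufs3, Ndufs7, Ndufs8, Ndufv1 and Ndufv2 were not called, with log2 fold changes from -0.15 (Ndufs1) to 0.36 (Ndufs3). Ndufa4, now counted as a subunit of complex IV, had a value of -0.13.

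In complex II, the assembly factor Sdhaf3 rose, and the 4 subunits Sdha, Sdhb, Sdhc and Sdhd were not called, with log2 fold changes from -0.14 (Sdha) to 0.42 (Sdhc). Sdhaf3, which helps to mature the iron-sulfur subunit, had 3.96, 2.22 and 2.72 CPM in Control and 6.15, 4.55 and 5.13 CPM in the Rasa1-KO-labelled libraries (log2 fold change 0.83, SE 0.23, edgeR adjusted p = 0.0126). In complex III, 3 of 8 genes rose, namely Uqcrfs1, the Rieske iron-sulfur protein, the core protein Uqcrc2 and the hinge protein Uqcrh. Uqcrfs1 had 98.4, 60.7 and 57.9 CPM in Control and 113, 106 and 116 CPM there (log2 fold change 0.63, SE 0.18, edgeR adjusted p = 0.0141). Control unnumbered thus lay close below the lowest Rasa1-KO-labelled library. The log2 fold changes of Uqcrc2 and Uqcrh were 0.51 and 0.69, and that of the other core protein, Uqcrc1, was 0.04 (SE 0.21, edgeR adjusted p = 0.902).

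In complex IV, 3 of 20 genes rose, and all 3 encode small subunits: the isoforms Cox7a1 and Cox7a2 of subunit 7a, and Cox7c. Cox7a1 had 3.17, 2.19 and 2.42 CPM in Control and 4.87, 4.27 and 4.52 CPM in the Rasa1-KO-labelled libraries (log2 fold change 0.81, SE 0.17, edgeR adjusted p = 0.00281). Cox7c had 119, 64.5 and 60.8 CPM in Control and 141, 129 and 149 CPM there (log2 fold change 0.78, SE 0.21, edgeR adjusted p = 0.012), and Cox7a2 rose by 0.64 on the log2 scale. Cox7a2l, a relative that joins complexes III and IV in supercomplexes, had a log2 fold change of 0.46 that did not pass (SE 0.23, edgeR adjusted p = 0.133). The larger nuclear subunit Cox4i1 had 0.34, and the copper chaperone Cox17 had 0.59 (SE 0.26, edgeR adjusted p = 0.0855). Cox10, which makes heme for complex IV, ran against the rest inside the control group, with 9.85 CPM in Control unnumbered, 12.3 in Control 1 and 12.96 in Control 2, and had a log2 fold change of -0.27 that did not pass (edgeR adjusted p = 0.116).

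In complex V, the gamma subunit Atp5c1, the delta subunit Atp5d and the c-ring gene Atp5g2 rose, and 14 of 17 genes were not called. Atp5c1, the rotating shaft of the enzyme, had 209, 128 and 98.1 CPM in Control and 263, 240.1 and 262 CPM in the Rasa1-KO-labelled libraries (log2 fold change 0.82, SE 0.21, edgeR adjusted p = 0.00924). Atp5d rose by 0.63 on the log2 scale. The abundant alpha and beta subunits Atp5a1 and Atp5b had log2 fold changes of 0.38 and 0.27 and were not called. Atp5j, a subunit of the peripheral stalk, had 50.4, 32.9 and 49.8 CPM in Control and 34.3, 34.6 and 36.7 CPM there, a log2 fold change of -0.33 that did not pass (SE 0.15, edgeR adjusted p = 0.0854).

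The balance among the genes for the c-ring of the ATP synthase is a ratio inside each library, which no scaling between libraries can move. Atp5g1, Atp5g2 and Atp5g3 encode different import sequences and the same mature protein, the ring that turns as protons pass, and reads may be divided among these similar genes. Atp5g2 itself had 238, 142 and 62.1 CPM in Control and 315, 285 and 325 CPM in the Rasa1-KO-labelled libraries (log2 fold change 1.07, SE 0.34, edgeR adjusted p = 0.0242), while Atp5g1 and Atp5g3 had log2 fold changes of 0.09 and 0.02. As a share of the summed FPKM of the 3 genes, Atp5g2 took 55.9%, 54.2% and 36.3% in Control, 68.3%, 67.1% and 68.8% in the Rasa1-KO-labelled libraries, 64.1%, 65.0% and 66.9% in Nf2-KO, and 53.6%, 58.1% and 59.2% in the double-KO-labelled ones. The shares of the first 2 of these KO groups lay above all control libraries, and the double-KO-labelled ones overlapped Control. The share of Atp5g1 was 27.1% ± 1.72 (SD, n = 3) in Control, 17.9% ± 0.556 in the Rasa1-KO-labelled libraries, 19.2% ± 0.200 in Nf2-KO and 24.6% ± 1.44 in the double-KO-labelled ones. Within Control the share of Atp5g1 was 26.0%, 26.2% and 29.1%, and Control 2 also stood apart in the shares of Atp5g2, given above, and of Atp5g3, at 18.01%, 19.6% and 34.6%. With 3 libraries against 3, an exact permutation test cannot give a two-sided p below 0.1, and no test of the shares is given.

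**Figure D3:**
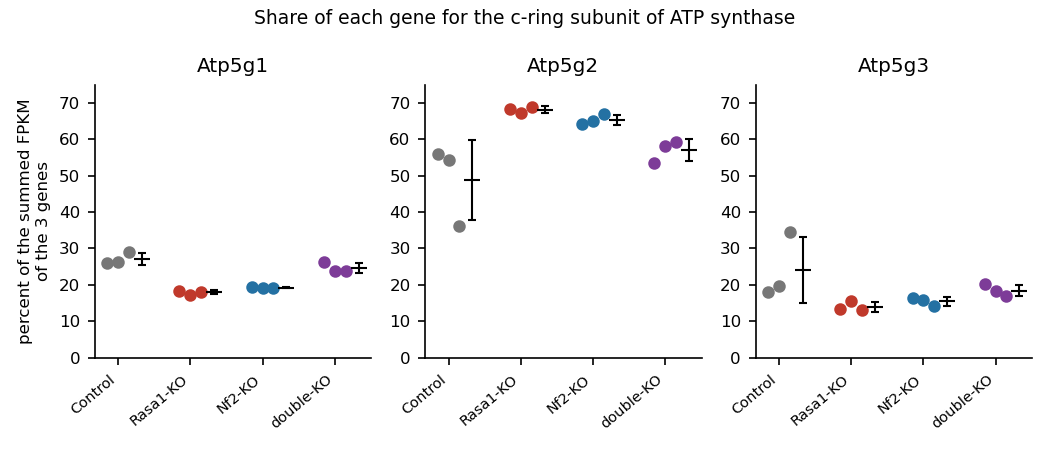
Share of Atp5g1, Atp5g2 and Atp5g3 in their summed FPKM (y axis, percent) in the 3 libraries of each group (points) with mean and SD (black). The share of Atp5g1 lies between 26.0% and 29.1% in Control and between 17.3% and 19.4% in the 6 Rasa1-KO-labelled and Nf2-KO libraries.

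Nf2-KO against Control addresses loss of Nf2 alone. Of the 100 members 6 rose and 1 fell (edgeR), against 20.6% and 22.2% of all genes, and the members' median log2 fold change was 0.14 against -0.07. Medians were 0.14, 0.09, 0.22, 0.11 and 0.24 from complex I to V. The libraries did not overlap, with Nf2-KO higher, for 7 members against 24.4% of all genes, and the fold rule of the study called no member against 11.4%. Fitted on these 2 groups alone no member was called, while 27.9% of all genes were. Without Control unnumbered 72 rose and 1 fell, against 61.8% of all genes called, and without Control 1 there were 2 and 2, against 34.5%. Without Nf2-KO 2 there were 3 and 1 (33.4% of all genes), and without Nf2-KO 3 only 3 rose (32.4%).

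The members that rose were Ndufv3, Atp5c1, Cox7a1, Ndufa6, Ndufaf5 and Atp5d. Ndufv3 had 112, 116 and 126 CPM in Nf2-KO (log2 fold change 0.90, SE 0.29, edgeR adjusted p = 0.0252), and Atp5c1 had 224, 250.1 and 259 CPM (log2 fold change 0.75, SE 0.21, edgeR adjusted p = 0.013). Both lay above the 3 control libraries given above. Cox7a1 had 3.89, 3.98 and 4.65 CPM, also above Control (log2 fold change 0.68, SE 0.17, edgeR adjusted p = 0.00678). Ndufa6 had 181, 196 and 214 CPM and overlapped Control unnumbered (log2 fold change 0.58, SE 0.20, edgeR adjusted p = 0.0371). Ndufaf5, an assembly factor that modifies the core subunit Ndufs7, had 10.5, 9.10 and 8.06 CPM in Control and 11.97, 13.4 and 13.1 CPM in Nf2-KO (log2 fold change 0.47, SE 0.13, edgeR adjusted p = 0.011). Ndufaf4 fell to 12.4, 14.7 and 12.96 CPM, below all control libraries (log2 fold change -0.34, SE 0.12, edgeR adjusted p = 0.038). Without Control unnumbered it was not called in Nf2-KO (edgeR adjusted p = 0.0767) or in the Rasa1-KO-labelled libraries (edgeR adjusted p = 0.0788).

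**Figure D4:**
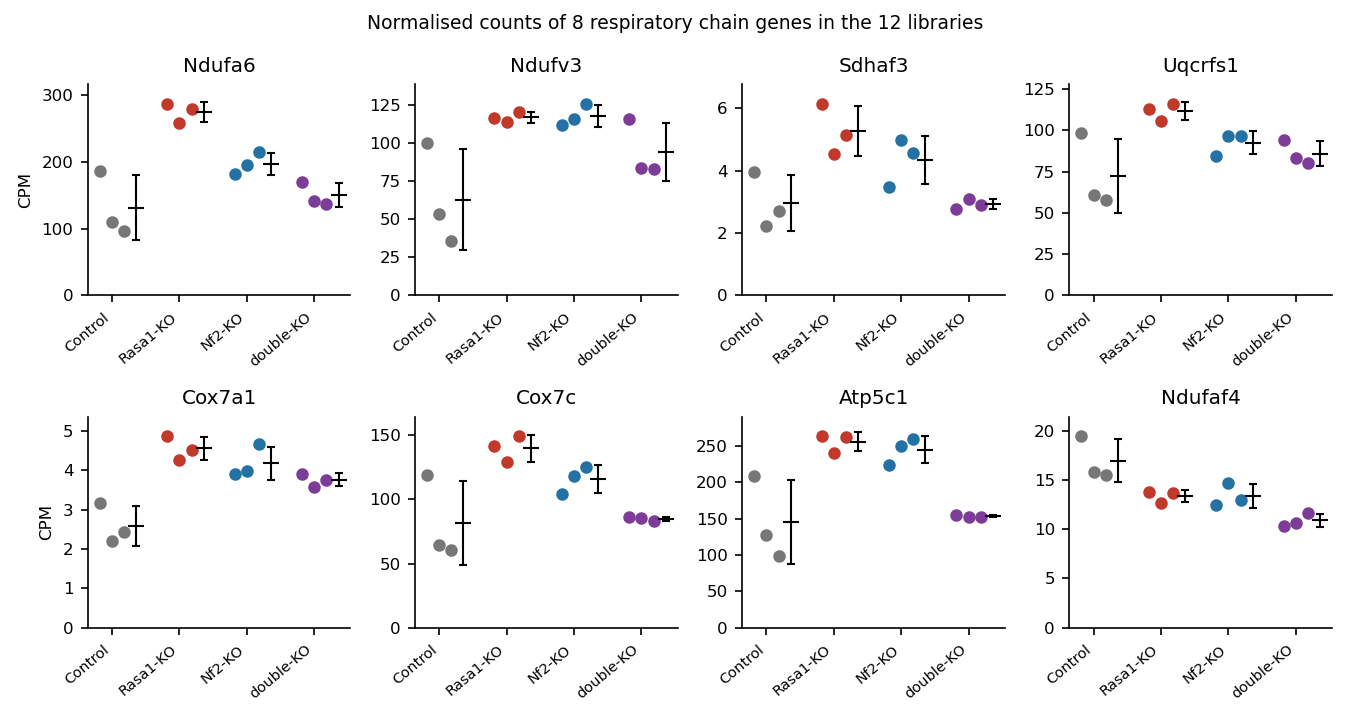
CPM (y axis, from 0) of 8 members in the 3 libraries of each group (points) with mean and SD (black). Cox7a1 lies above and Ndufaf4 below all control libraries in each of the other groups, while the other 6 genes spread widely within Control.

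Double-KO against Control would ask what the combined loss changes, yet Nf2 was not lower in these libraries (58.9 against 58.2 CPM). By the labels no member rose and only Ndufaf4 fell (edgeR), against 4% and 2.46% of all genes, while 4 members had an unadjusted p under 0.05 and DESeq2 called Cox7a1 higher and Ndufaf4 lower, and limma called Ndufaf4. The members' median log2 fold change was 0.04 against -0.04 for all genes, with 62 of 100 above 0, and the fold rule of the study called no member against 2.03%. Ndufaf4 had 10.4, 10.7 and 11.6 CPM in the double-KO-labelled libraries, below the 15.5 CPM of the lowest control library (log2 fold change -0.64, SE 0.12, edgeR adjusted p = 0.0095). It was the 1 member that did not overlap Control on the lower side, against 8.36% of all genes. Cox7a1 was the 1 member that did not overlap on the higher side, against 10%, at 3.92, 3.59 and 3.76 CPM (log2 fold change 0.53, SE 0.17, edgeR adjusted p = 0.0892). With the labels exchanged 12 members rose and 1 fell, against 41.9% of all genes called. Without Control unnumbered 51 members rose and 1 fell, against 30.3%, and without double-KO 2 none was called, against 2.71%.

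Table names carry numbers that these 2 groups share, and the pairs made by these numbers did not go the same way. The pairs numbered 1 and 2 are by name only. Deviations correlated across these 2 numbers (0.258 and 0.399) about as they did within them (0.313 and 0.444). The pair without a number had a member mean lower by 0.28 on the log2 scale in the double-KO-labelled library, with 11 of 100 members higher there. In the pair numbered 1 it was higher by 0.16, with 83 members higher, and in the pair numbered 2 higher by 0.43, with 91 members higher. With these numbers as a block, 4 members rose and 1 fell, against 13.9% of all genes called. What the numbers stand for is not given in the sources used here.

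By the labels, the double-KO-labelled libraries lack Nf2 where the Rasa1-KO-labelled ones hold it, but their Nf2 counts went the other way. Nf2 had 58.9 CPM in the double-KO-labelled libraries and 11.9 in the Rasa1-KO-labelled ones. Rasa1 was below Control in both. Here 8 members fell and none rose in the double-KO-labelled libraries (edgeR), against 14% and 16.3% of all genes, and the median was -0.25 against 0.00. Control libraries enter this difference only through the scaling, the filter and the shared estimate of the spread. Ndufa6 fell from between 258 and 287 CPM to 170.2, 142 and 137 CPM (log2 fold change -0.87, SE 0.20, edgeR adjusted p = 0.00778). Sdhaf3 fell from between 4.55 and 6.15 CPM to 2.79, 3.09 and 2.91 CPM (log2 fold change -0.85, SE 0.23, edgeR adjusted p = 0.0151). Atp5c1, Cox7c and Atp5mpl, a small subunit of complex V, fell by 0.74, 0.72 and 0.66 on the log2 scale, and Ndufaf5, Uqcrc2 and Atp5d were also called. Atp5c1 was at 155, 153 and 152 CPM and Cox7c at 86.2, 85.3 and 83.3 CPM in the double-KO-labelled libraries, so neither followed the difference between the library numbered 1 and the other two that the member mean showed. Fitted on these 2 groups alone, 38 members fell, against 45.6% of all genes called. In the shared fit 37 were called without Control unnumbered (46.9% of all genes) and 17 without Control 2 (37.3%). Leaving out any of the 6 libraries compared gave between 2 (without double-KO 3, 21.4% of all genes) and 5 (without Rasa1-KO 1, 22.9%). With the labels exchanged the same 8 differences change sign.

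Between the Rasa1-KO-labelled and the Nf2-KO libraries, no member was called in either direction (edgeR), against 1.92% higher and 1.74% lower of all genes, 1 member had an unadjusted p under 0.05, and DESeq2 and limma called none. The median log2 fold change of Rasa1-KO against Nf2-KO was 0.13, with 91 of 100 members above 0, and medians by complex lay between 0.12 and 0.20. A p that misses the threshold does not show equal levels: the median standard error was 0.22. Fitted on these 2 groups alone 25 members were called, all of them higher in the Rasa1-KO-labelled libraries. Of all genes 24.9% were called there, counted in either direction. With the labels exchanged 2 members were called, against 32.2% of all genes, and without Control unnumbered 5 were, against 12.3%.

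Over the 4 groups together, 8 members differed (edgeR) against 46.3% of all genes: Ndufa6, Ndufaf4, Ndufaf5, Sdhaf3, Cox7a1, Cox7c, Atp5c1 and Atp5d. The departure from additivity is the double-KO difference from Control minus the sum of both single differences. It was called below 0 (edgeR, adjusted p under 0.05) for 20 members and above 0 for 1, against 24.9% and 27.4% of all genes. That 1 gene was Atp5j. Without Control unnumbered 73 members were called below 0 and 2 above, while with the labels exchanged 1 was called above and none below. The share of all genes with a departure under these settings is not given here. For Rasa1-KO against Control, 60.8% of all genes were called without Control unnumbered and 6.46% with the labels exchanged.

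Other lists of mitochondrial genes are read against the 19.7% of all genes that rose and the 22.2% that fell in the Rasa1-KO-labelled libraries. Of 78 mitochondrial ribosomal proteins 23 rose there against Control (median log2 fold change 0.33, led by Mrpl30 at 1.13), and of 23 genes of mitochondrial import 8 rose (median 0.39, led by Tomm7 at 0.91). Of 18 genes of the tricarboxylic acid cycle 5 rose and 1 fell (median 0.23); the largest change was in Ogdh, a subunit of the oxoglutarate dehydrogenase, at -0.9995. Of 57 respiratory chain genes outside the symbol rule 7 rose and 4 fell, with a median of 0.06. In double-KO against Control no gene of the first 3 lists was called (edgeR), with an unadjusted p under 0.05 for 4, 0 and 2 genes, and 1 of the 57 rose, against 4% of all genes. Among the 57, Higd1a, a hypoxia-induced protein of the inner membrane, had 82.3, 40.8 and 30.8 CPM in Control, 164, 152 and 160.1 CPM in the Rasa1-KO-labelled libraries, 163, 179.6 and 191 CPM in Nf2-KO, and 130.1, 107 and 96.5 CPM in the double-KO-labelled ones. All 9 libraries lay above Control, and its log2 fold changes were 1.63, 1.79 and 1.11 (edgeR adjusted p = 0.000887, 0.000393 and 0.0373).

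The regulators of mitochondrial biogenesis did not move as a block, with 3 of 15 higher and 3 lower in the Rasa1-KO-labelled libraries (median 0.03). Ppargc1a, the coactivator known as a driver of mitochondrial biogenesis, had 10.1, 20.3 and 26.6 CPM in Control, 4.13, 4.81 and 3.77 CPM in the Rasa1-KO-labelled libraries, 4.96, 4.58 and 3.46 CPM in Nf2-KO, and 9.32, 5.37 and 6.01 CPM in the double-KO-labelled ones. Every library of the other groups lay below Control, with log2 fold changes of -2.16, -2.13 and -1.46 (edgeR adjusted p = 0.000341, 0.000303 and 0.0197). Within Control it ran against the members, lowest in Control unnumbered. Gabpa, a subunit of an ETS factor known to act on genes for mitochondrial proteins, rose by 0.47 in the Rasa1-KO-labelled libraries and by 0.65 in Nf2-KO on the log2 scale (edgeR adjusted p = 0.00213 and 0.000192). In the double-KO-labelled ones its log2 fold change was 0.21 and did not pass (edgeR adjusted p = 0.227), and no regulator was called higher there.

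The members' mRNAs are short, and short mRNAs as a whole moved with them. With the tested protein-coding genes divided by transcript length into 4 bins of equal size, 89 of the 100 members fell in the shortest, below 2128 bases. The mean of that bin was 0.12, -0.17 and -0.34 in Control unnumbered, Control 1 and Control 2, and that of the longest bin was -0.35, 0.27 and 0.49. In the Rasa1-KO-labelled libraries against Control, the median log2 fold changes ran 0.26, 0.03, -0.11 and -0.35 from the shortest to the longest bin, so the members' median of 0.30 lay close to that of the shortest. Of that shortest bin 30.9% rose and 11.4% fell there, against 12 and 1 of the 100 members. With scaling factors taken from the shortest bin, which moved the members' median to 0.03 and that of all genes to -0.42, 13 members rose and 9 fell, against 47.8% of all genes called. Under TMM the median of the shortest bin in Nf2-KO against Control was 0.17, against 0.14 for the members. In double-KO against Control these medians were 0.07 and 0.04. The 77 cytoplasmic ribosomal proteins moved further than any complex: all 77 rose in the Rasa1-KO-labelled libraries (median 1.06, led by Rpl17 at 1.41) and 67 in Nf2-KO (median 0.79). The part of transcript length, of the lncRNA share and of the libraries' numbers in the members' differences was not tested.

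**Figure D5:**
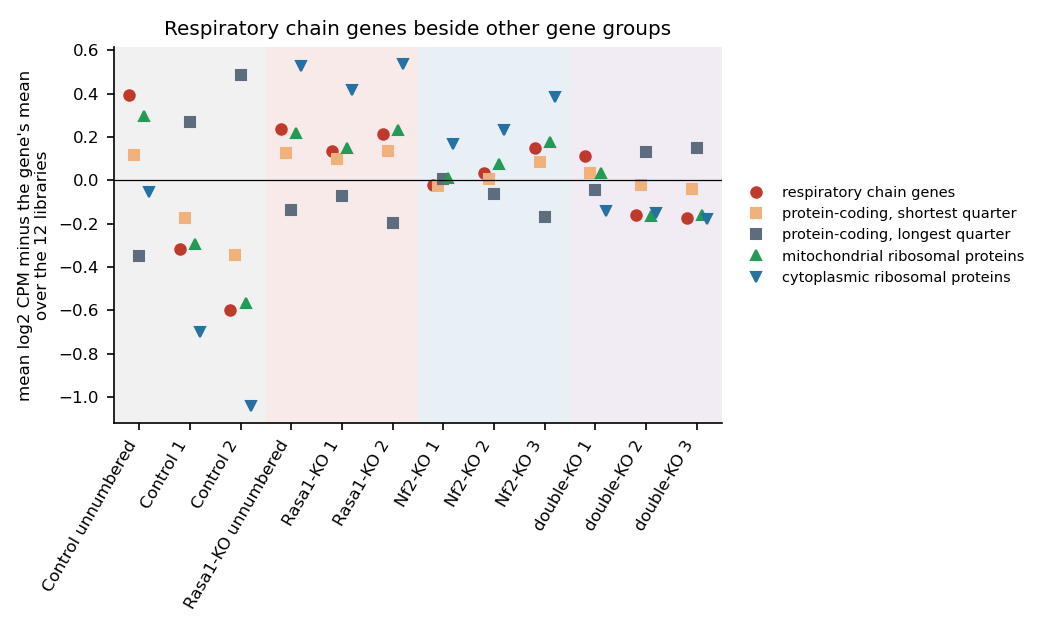
Mean log2 CPM of the members, of the shortest and longest length bins of protein-coding genes and of both sets of ribosomal proteins in the 12 libraries (x axis), relative to each gene's mean over the libraries (y axis, log2). Members and mitochondrial ribosomal proteins run side by side, from 0.39 and 0.30 in Control unnumbered to -0.60 and -0.57 in Control 2.

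With scaling factors taken from the members themselves, which sets aside any movement they share and puts the median of all genes at -0.48, 11 members were higher and 8 lower in the Rasa1-KO-labelled libraries against Control, and 9 of these 19 were among the 13 called before. Of all genes 39% were called under these factors. Named by their values after these were seen, Ndufa6, Atp5c1, Atp5g2, Cox7a2, Cox7c, Ndufv3, Uqcrfs1 and Uqcrh were higher and Ndufaf4 was lower under both scalings.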

How the data were processed

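RNA of 12 libraries, 3 in each of 4 groups, was sequenced after removal of ribosomal RNA. Per the labels and the methods, reads went through Trimmomatic 0.38 before the authors mapped them on mm10 by HISAT and assembled transcripts with StringTie 2.1.3b. The authors deposited raw read counts per gene, which were tested here, and FPKM, which were used for levels. Genes with a count of 0 in any library are not in the tables.

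Counts were filtered with filterByExpr, scaled by TMM and fitted in 1 quasi-likelihood model over the 4 groups in edgeR 4.0.16 (R 4.3.3, 8 residual degrees of freedom). P-values were adjusted by Benjamini and Hochberg over 18053 genes and called under 0.05. Log2 CPM used a prior count of 2. Alternatives were DESeq2 1.42.0, limma 3.58.1 on log2(FPKM + 1) or log2(FPKM + 0.1), other scalings and filters, blocks, exchanged labels and each library left out. Numbers in the names of the tables are shared by Control and double-KO libraries (correlations of deviations 0.626, 0.313 and 0.444 at the same number). Across the numbers 1 and 2 these correlations were 0.258 and 0.399. They set the unnumbered libraries apart from the numbered ones but do not settle the pairs numbered 1 and 2. Depth limits precision: the lowest count of a member in a library lay between 37 and 136.

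Members, lists and tests were chosen with earlier results of these data known. Genes named are the 5 members that rose and the 5 that fell most per comparison, members with core or isoform roles, and the leading genes of each list. Others, among them Cox10, Cox17, Atp5j, Uqcrh and Gabpa, were named after their values were seen. The method was tested on simulated data. Figures were drawn with matplotlib 3.10.9.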

Additional observations from a re-analysis of the deposited data

Results flagged for a closer look

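For 21 members, the difference of the double-KO-labelled libraries from Control departed from the sum of both single differences, by the test of that difference itself (edgeR adjusted p from 0.000528 to 0.0484). The departure on the log2 scale was -1.67 for Atp5g2, -1.49 for Atp5c1, -1.46 for Ndufa6, -1.40 for Sdhaf3, -1.23 for Cox7c, -1.22 for Ndufv3, -1.13 for Atp5mpl and -1.05 for Ndufaf5. It was -0.96 for both Cox7a1 and Ndufc2, -0.88 for Uqcrc2, -0.86 for both Ndufb9 and Cox7b, -0.85 for Cox7a2, -0.82 for Atp5d, -0.81 for Atp5pb, -0.79 for Uqcrh, -0.76 for Ndufs3, -0.75 for Ndufaf6 and -0.73 for Uqcrfs1. Atp5j departed above 0, by 0.60. The 20 of 100 members called below 0 stand against 24.9% of all genes, and the 1 called above 0 against 27.4%. The departure is defined by the labels of both groups whose Nf2 counts go against them. With these labels exchanged none was called below 0 and 1 was called above.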

How the results depend on the processing

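The members called (edgeR) moved by over 1.5 times under the following alternatives, where the ranges leave out 1 library of the groups compared. In brackets is the percent of all genes called under the same setting, where at hand. Against Control, the 13 for Rasa1-KO became 3 fitted on the compared groups alone (26.1%), 1 with exchanged labels (6.46%) and 0 by the fold rule of the study (9.27%). They became 89 without both libraries whose tables carry no number (66.2%), 66 blocked by table number (52%) and 22 with factors from the shortest bin (47.8%). With 1 library left out they were between 6 (without Rasa1-KO unnumbered, 31.1%) and 86 (without Control unnumbered, 60.8%). The 7 for Nf2-KO became 4 without a filter (39.5%), 0 on the compared groups alone (27.9%) and 0 by the fold rule (11.4%). Under the 3 settings on unnumbered tables, table number and shortest bin they became 80 (67.2%), 42 (53.2%) and 16 (45.6%). With 1 library left out they were between 3 (without Nf2-KO 3, 32.4%) and 73 (without Control unnumbered, 61.8%). They were 4 without Rasa1-KO 2 (39.6%) or without double-KO 3 (39.4%), which are not compared. The 1 for double-KO became 3 with library totals (9.19%), 2 with DESeq2 (12%) and 0 on the compared groups alone (0.0942%). It became 13 with exchanged labels (41.9%), 0 by the fold rule (2.03%), and 29 (30.1%), 5 (13.9%) and 2 (8.34%) under the same 3 settings. The range was between 0 (without double-KO 2, 2.71%) and 52 (without Control unnumbered, 30.3%). The 8 for double-KO against Rasa1-KO became 13 with DESeq2 (35.5%), 38 on the compared groups alone (45.6%) and 0 by the fold rule. They became 58 (50.7%), 47 (41.9%) and 15 (30.4%) under the same 3 settings. The range was between 2 (without double-KO 3, 21.4%) and 5 (without Rasa1-KO 1, 22.9%). They were 37 without Control unnumbered (46.9%) and 17 without Control 2 (37.3%), which are not compared. The 0 for Rasa1-KO against Nf2-KO became 25 on the compared groups alone (24.9%) and 2 with exchanged labels (32.2%). It became 13 (19.4%), 2 (8.66%) and 1 (3.88%) under the same 3 settings. It stayed 0 with 1 library of either group left out, but was 5 without Control unnumbered (12.3%). The 8 that differed over the 4 groups became 13 with library totals, 15 with protein-coding genes only, 16 with DESeq2, 16 with factors from the members, 86, 52 and 23, and between 6 and 77. The 21 departures from additivity became 1 with exchanged labels, 1 by the fold rule, 84, 67 and 33, and between 11 and 75. The percent of all genes was not at hand for either of these tests, so these counts cannot be read as particular to the members.

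With the numbers in the titles as a replicate block, the counts in the same order were 20, 14, 0 and 3 for the first 4 comparisons and 16 over the 4 groups. Of all genes 40.4%, 41.2%, 2.78% and 20.7% were called in the first 4 comparisons under this block. The share over the 4 groups was not at hand. These numbers did not pair the samples (same-number correlations of deviations in Nf2-KO with double-KO of -0.08, -0.038 and -0.093), so they are shared numbers only. Of 660 alternatives to the 33 results on single named genes, 519 kept direction and call, 132 lost the call and 9 reversed, all 9 with exchanged labels: against Control, Sdhaf3 to -0.0216, Uqcrc2 to -0.0093 and Ogdh to 0.042, and in double-KO against Rasa1-KO, Ndufa6 to 0.87, Sdhaf3 to 0.85, Atp5c1 to 0.74, Cox7c to 0.72, Atp5mpl to 0.66 and Uqcrc2 to 0.52. The cause of these changes was not tested, other than that fewer libraries or groups enter some fits. By construction, exchanging the labels reverses double-KO against Rasa1-KO, leaves Nf2-KO against Control unchanged, and trades Rasa1-KO against Control for double-KO against Control. The outcomes under this exchange, kept or reversed, therefore do not measure how stable these results are. The 4 settings on table numbers and on factors from short or member genes were chosen after seeing the data.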
